A study of Mus musculus with 4 samples.

Results

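The potassium channel gene family was taken as every protein-coding gene whose symbol is Kcn followed by letters and a number, with Kcnk9 left out. GENCODE vM21 symbols gave 91 such genes in 20 subfamilies among the 37437 listed genes. RNA came from primary mouse cortical culture, described in the labels as cultured cortical neurons and infected with adeno-associated virus. In shCTCF cultures the virus carried a knockdown of Ctcf, whose product is an insulator protein that helps cohesin to form chromatin loops. In shLAC cultures it carried a knockdown of lacZ, a bacterial gene that mouse cells lack, so that both groups had virus and a knockdown construct. Each group had 2 libraries. No label says whether they were separate cultures, so p-values measure the spread between libraries, and part or all of that spread may be technical. Strain, age of the animals, promoter of the construct and time after infection are not stated in the labels.

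Potassium channels let potassium leave the cell, which sets the resting potential and ends the action potential. Voltage-gated (Kv) channels are built from pore subunits of the Kcna, Kcnb, Kcnc and Kcnd subfamilies. Silent subunits (Kcnf, Kcng, Kcns, Kcnv) form no channel alone and change the behaviour of the Kcnb channels they join. Kcnq channels carry the M current, Kcnh channels are the Eag, Erg and Elk types, and Kcnma, Kcnn and Kcnt channels open with internal calcium or sodium. Kcnj channels rectify inwardly, Kcnk channels leak, and Kcnip, Kcnab, Kcne and Kcnmb genes encode auxiliary proteins.

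Regions before start sites of 3 of the members called changed (limma, adjusted p under 0.05) are shown because Ctcf, which encodes a DNA-binding protein, is the gene that was knocked down. RefSeq promoter windows (GRCm38.p6, 250 bases before to 50 after a start) were matched by symbol for 67 members, with 92 windows. Each window was searched on both strands for AGNNGGCGC, letters from the core of the CTCF binding motif. They were found in 6 of the 92 member windows (6.52%), against 7.23% of all 32851 windows of the table. Of the called members with a window (Kcnh1, Kcnf1, Kcnip4 and Kcns3), only Kcnh1 held the letters, with their first base at position -43 from its start site. The called member Kcnh3 had no window. Both Kcnip4 windows lie inside the annotated gene, whose first base on the - strand is 49524907, and no window covers that end. The 250 bases upstream of Kcnh1, Kcnf1 and the 2 listed starts of Kcnip4 follow, with the matched letters in capitals.
Kcnh1 (chr1:192190527-192190776, + strand): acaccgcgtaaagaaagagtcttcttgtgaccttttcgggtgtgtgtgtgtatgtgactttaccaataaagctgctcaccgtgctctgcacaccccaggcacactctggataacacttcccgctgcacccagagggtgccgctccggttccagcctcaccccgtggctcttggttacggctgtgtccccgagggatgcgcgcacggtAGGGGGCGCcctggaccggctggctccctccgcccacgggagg
Kcnf1 (chr12:17176889-17177138, - strand): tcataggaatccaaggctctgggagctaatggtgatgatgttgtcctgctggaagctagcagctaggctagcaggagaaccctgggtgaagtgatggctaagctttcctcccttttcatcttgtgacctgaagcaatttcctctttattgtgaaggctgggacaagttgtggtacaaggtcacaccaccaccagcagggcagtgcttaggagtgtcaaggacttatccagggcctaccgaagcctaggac
Kcnip4 start 1 (chr5:49285660-49285909, - strand): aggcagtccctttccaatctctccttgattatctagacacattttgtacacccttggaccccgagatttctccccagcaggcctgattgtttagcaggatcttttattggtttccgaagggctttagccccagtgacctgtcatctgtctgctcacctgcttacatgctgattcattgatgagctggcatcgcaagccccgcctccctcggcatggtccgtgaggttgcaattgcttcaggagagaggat
Kcnip4 start 2 (chr5:48599683-48599932, - strand): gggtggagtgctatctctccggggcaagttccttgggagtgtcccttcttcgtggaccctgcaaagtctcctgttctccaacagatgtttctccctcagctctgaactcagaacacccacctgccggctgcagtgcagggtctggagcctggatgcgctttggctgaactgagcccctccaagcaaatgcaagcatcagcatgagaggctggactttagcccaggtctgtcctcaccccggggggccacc
The Kcnh1 stretch held 17 CG pairs and that of Kcnf1 held 1. The Kcnip4 stretches held 6 and 5. The 2 Kcns3 windows are not shown, and with the 50 bases after the start they held 9 and 32 CG pairs.

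Matches in the other members stood before genes that were not called or not tested, and 29-base windows in the direction of the match let the letters be compared.
Kcnh1 (chr1:192190724-192190752, + strand): cgcgcacggtAGGGGGCGCcctggaccgg
Kcnj4 (chr15:79505288-79505316, - strand): catcgcgggcAGGCGGCGCccgcgtccca
Kcnj6 (chr16:94997742-94997770, + strand): tctggataaaAGCGGGCGCagcgccgcgc
Kcnmb4 (chr10:116473634-116473662, + strand): gtgggcggcgAGGGGGCGCgcgcgagaac
Kcnk13 (chr12:99964440-99964468, - strand): tcaggccagaAGAGGGCGCtgcgtgccct
Kcnk15 (chr2:163853518-163853546, + strand): ggtgggcaccAGAGGGCGCttggtgaata
Kcnh1 and Kcnmb4 carried the same 9 letters. Kcnmb4, which encodes a neuronal accessory subunit of the Kcnma1 channel, had a log2 fold change of -0.059 and overlapping groups. None of the 6 matches overlapped a GC box (GGGCGG on either strand), which occurred in 47.8% of member windows and 35.7% of all windows. A match describes letters and is not a bound site.

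Ctcf itself was at 3.56 TPM in each shCTCF library, against 8.49 and 7.32 TPM in shLAC, and fell by 1.13 on the log2 scale after scaling (limma, SE 0.0666, adjusted p = 0.00288). TPM is the share of transcripts after correction for length, and it carries no information on sequencing depth, so the depth is unknown. In shLAC replicate 2, 13 satellite-like predicted genes took 20.2% of all TPM, against at most 1.86% in the other libraries. As deposited, the 11268 coding genes tested had a median log2 fold change of 0.17. Median-ratio scaling removes this shift, and all changes below are differences of log2(scaled TPM + 1), a scale that understates changes of low genes. The neuronal marker Map2 lay between 213 and 292 TPM, whereas 6 of 7 microglial and 7 of 7 endothelial and pericyte markers stayed below 0.5 TPM in every library. Other glial markers were present. Slc1a3, of astrocytes, lay between 29.1 and 47.3 TPM, and Olig1, of the oligodendrocyte lineage, between 24.3 and 39.5 TPM. Only 1 of 12 astrocyte and 1 of 9 oligodendrocyte lineage markers stayed below 0.5 TPM in every library.

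Of the 91 members, 59 reached 1 TPM in at least 2 libraries and were tested. In limma's test over the 11268 coding genes, 1 member rose (Kcnip4), 4 fell (Kcnf1, Kcnh1, Kcns3 and Kcnh3) and 54 did not pass an adjusted p of 0.05. Over all coding genes in the same test 2.58% rose and 3.48% fell, shares that would give 1.52 and 2.05 of 59 genes. One of the fallers, Kcns3, passed the level filter through the shLAC libraries alone and could enter only as a faller, and without it 3 fell. Counts this near to the background say little about the family as a whole. At an unadjusted p of 0.05, 7 members were higher and 12 lower in shCTCF, against 11.7% and 11.9% of coding genes, which would give 6.90 and 7.04. Groups did not overlap in scaled TPM for 14 members higher and 19 lower in shCTCF, against 27.5% and 27.1% of coding genes. The median change was -0.040 over the 59 members and -0.00043 over all coding genes. In bulk RNA, fewer cells of a type and less RNA per cell cannot be told apart.

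The calls moved with the genes in the test and with the scaling. Over all 12816 tested genes after scaling, 0 members rose and 1 fell (Kcnh1), where 0.367% of genes rose and 0.679% fell. With the values as deposited, 0 rose and 1 fell (Kcnf1), over the 11268 coding genes as over all 12816 genes, and in the larger set 1.92% of genes rose and 0.905% fell. For any single value, an exact permutation test of 2 against 2 libraries cannot give a 2-sided p below 0.333.

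**Figure D1:**
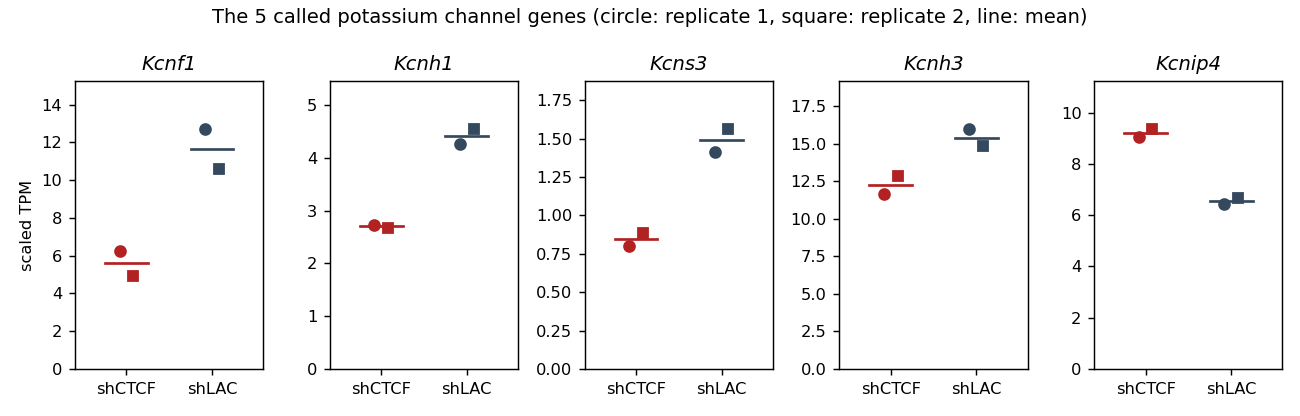
Scaled TPM (y axis, from 0) in the 2 shCTCF and 2 shLAC libraries for the 5 called members, with lines at the group means. The groups do not overlap in any panel, but the genes were picked because these same values called them. Among single coding genes 27.5% separated as higher and 27.1% as lower in shCTCF. Kcns3 passed the level filter through the shLAC libraries alone. Kcnip4 sits at 9.05 and 9.36 in shCTCF and 6.43 and 6.68 in shLAC, and the other 4 genes sit lower in shCTCF.

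Among the silent Kv subunits, Kcnf1 showed the largest change of any tested member. Kcnf1 (ENSMUSG00000051726, chromosome 12, 17172100 to 17176888, - strand) was at 6.85 and 5.17 TPM in shCTCF, against 13.3 and 8.81 TPM in shLAC. Coordinates are those of GRCm38. After scaling it was at 6.25 and 4.93 in shCTCF and 12.7 and 10.6 in shLAC. Both knockdown libraries lay below both controls on either scale, and the shCTCF mean was 48.0% of the shLAC mean. The difference was -0.94 (limma, SE 0.117, adjusted p = 0.0102, lower in 2 of 2 shCTCF libraries). Kcnf1 was called with each library left out in turn (adjusted p at most 0.0237) and in the values as deposited (0.00887 over all 12816 genes). As deposited, limma's p-values do not reflect a gene's own spread. After scaling Kcnf1 missed the threshold over all 12816 genes (0.0745) and without a filter on low values (0.0509).

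Kcns3, whose product also joins Kcnb channels, was at 0.802 and 0.887 scaled TPM in shCTCF and 1.41 and 1.56 scaled TPM in shLAC, and fell by 0.43 on the log2 scale (limma, SE 0.0791, adjusted p = 0.0316). It passed the level filter through the shLAC libraries alone, so it could enter the test only as a gene that is higher there. Leaving out shCTCF replicate 1 or 2 ended the call (adjusted p = 0.118 and 0.109). Kcns2 was at 2.22 and 2.19 scaled TPM in shCTCF and 2.91 and 2.66 scaled TPM in shLAC (adjusted p = 0.112). The most abundant silent subunit gene, Kcnv1, was at 18.5 and 16.3 in shCTCF and 20.5 and 16.2 in shLAC, with overlapping groups. Kcng3 (adjusted p = 0.601) and Kcng1 (0.554) overlapped as well. Of the 6 tested silent subunits, Kcnf1 is thus the 1 that fell without having passed the level filter through shLAC alone, and 0 rose. Over all coding genes 3.48% fell and 2.58% rose.

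Shares within a group do not depend on library scaling. Of the summed TPM of the 10 silent subunit genes, Kcnf1 made up 18.8% and 16.9% in shCTCF, against 29.3% and 29.5% in shLAC. Kcnv1 made up 55.5% and 55.8% in shCTCF and 47.3% and 45.2% in shLAC. Kcnf1 thus held a smaller share and Kcnv1 a larger one in both shCTCF libraries. Shares of 1 sum move together, and the scaled TPM of Kcnv1 itself overlapped between the groups. The summed scaled TPM of the silent subunits was 33.3 and 29.2 in shCTCF and 43.4 and 35.9 in shLAC. Without Kcnf1 the sums were 27.0 and 24.3 in shCTCF and 30.7 and 25.3 in shLAC, and the groups overlapped. Kcnf1 was left out because the same values called it lower, so this overlap is a description and no test.

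**Figure D2:**
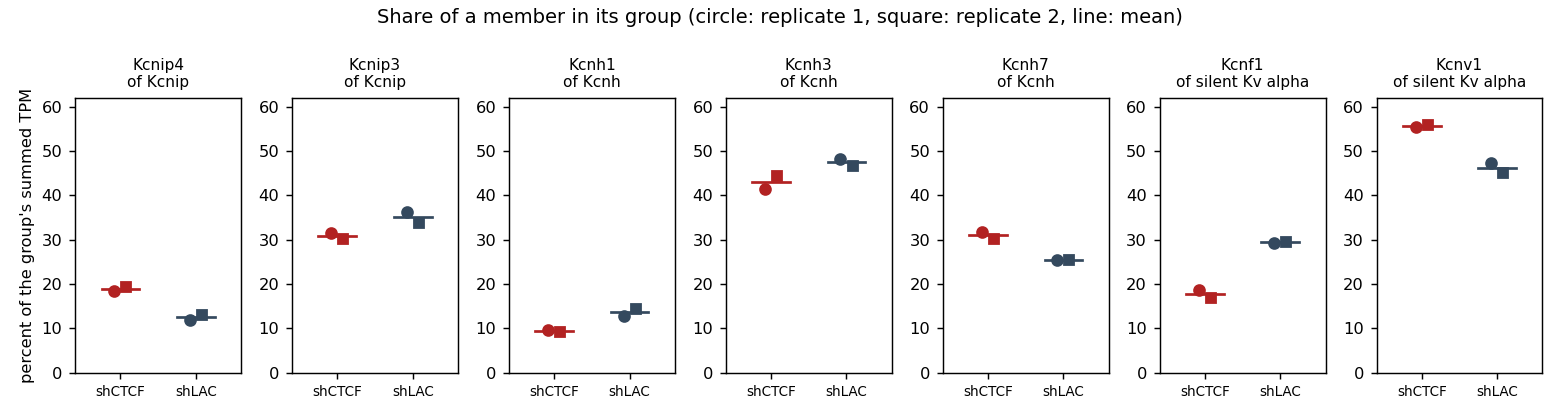
Percent of a group's summed TPM (y axis, from 0) taken by single members in each shCTCF and shLAC library, with lines at the group means. Kcnf1 takes 18.8% and 16.9% in shCTCF and 29.3% and 29.5% in shLAC, and Kcnip4 takes 18.4% and 19.3% in shCTCF and 11.99% and 13.1% in shLAC.

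The Kcnh subfamily held 2 of the 4 members that fell, among 5 tested Kcnh genes, where 3.48% of coding genes fell. The other 3 tested Kcnh genes had positive changes and were not called. So few genes say little about the subfamily. Kcnh1, an Eag channel gene (ENSMUSG00000058248, chromosome 1, 192190774 to 192510159, + strand), was at 3.00 and 2.80 TPM in shCTCF, against 4.47 and 3.78 TPM in shLAC. In scaled TPM it was at 2.74 and 2.67 in shCTCF and 4.27 and 4.54 in shLAC. The groups were apart on both scales, and the shCTCF mean was 61.3% of the shLAC mean. Kcnh1 fell by 0.55 on the log2 scale (limma, SE 0.0664, adjusted p = 0.00945). It was called without each library in turn (adjusted p at most 0.0492) and over all 12816 genes after scaling (0.0480). As deposited the difference was -0.39 and did not pass (0.388).

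Kcnh3, an Elk channel gene of the forebrain and the most abundant Kcnh gene, was at 11.7 and 12.8 scaled TPM in shCTCF and 16.0 and 14.8 scaled TPM in shLAC. It fell by 0.31 on the log2 scale (limma, SE 0.0668, adjusted p = 0.0494), close to the threshold. Leaving out shCTCF replicate 1, shCTCF replicate 2 or shLAC replicate 1 ended the call (adjusted p = 0.162, 0.0846 and 0.0523), and in deposited TPM the groups overlapped. Kcnh3 overlaps Mcrs1 on the other strand, a gene at up to 27.0 TPM, and without strand the reads of such partners cannot be told apart.

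Of the Erg channel genes, Kcnh2 and Kcnh7 were tested and did not pass. Kcnh2 was at 1.86 and 1.83 scaled TPM in shCTCF and 1.38 and 1.41 scaled TPM in shLAC (log2 fold change 0.25, adjusted p = 0.0939). Kcnh7 was at 8.93 and 8.74 in shCTCF and 8.44 and 8.04 in shLAC (adjusted p = 0.389). Of the summed Kcnh TPM, Kcnh1 held 9.75% and 9.23% in shCTCF and 12.9% and 14.3% in shLAC, whereas Kcnh7 held 31.8% and 30.2% in shCTCF and 25.5% and 25.4% in shLAC. Shares of 1 sum move together, and the sum holds Kcnh1 and Kcnh3, which these same values called lower. The ratio of Kcnh1 to Kcnh5, another Eag gene, was 1.15 and 1.19 in shCTCF and 1.89 and 2.09 in shLAC. Without Kcnh1 and Kcnh3, the scaled TPM of the other 6 Kcnh genes summed to 13.7 and 13.4 in shCTCF and 12.9 and 12.3 in shLAC. Both genes were left out because these same values called them lower, so the remaining sum is a description and no test. Kcnh4, Kcnh6 and Kcnh8 stayed below 0.5 TPM.

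Kcnip4 was the only tested member that rose in the test over coding genes with all 4 libraries and no replicate block; with the block Kcnq3 was called higher too (limma, adjusted p = 0.0365). The Kcnip genes encode KChIPs, calcium-sensing proteins that bind Kcnd channels and alter their surface level and inactivation. Kcnip4 (ENSMUSG00000029088, chromosome 5, 48389502 to 49524907, - strand) was at 9.93 and 9.81 TPM in shCTCF, against 6.73 and 5.56 TPM in shLAC. After scaling it was at 9.05 and 9.36 in shCTCF and 6.43 and 6.68 in shLAC, and both shCTCF libraries were above both controls on either scale. The shCTCF mean was 140% of the shLAC mean, a log2 difference of 0.43 (limma, SE 0.0573, adjusted p = 0.0116). The call ended without shCTCF replicate 2 (adjusted p = 0.0694) and over all 12816 genes (0.0552 after scaling and 0.0823 as deposited).

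The other Kcnip genes stood lower in scaled TPM and did not pass. Kcnip3, which encodes the KChIP also called DREAM or calsenilin, was at 15.5 and 14.7 in shCTCF and 19.5 and 17.3 in shLAC (log2 fold change -0.27, adjusted p = 0.0750). Without shLAC replicate 2 it was called lower (adjusted p = 0.00697). Kcnip2 was at 14.1 and 13.3 in shCTCF and 15.3 in each shLAC library. Kcnip1 was at 10.6 and 11.1 in shCTCF and 12.4 and 11.7 in shLAC. In deposited TPM the groups overlapped for all 3 of these genes, and the differences of Kcnip1 and Kcnip2 were 0.042 and 0.035. Of the summed Kcnip TPM, Kcnip4 made up 18.4% and 19.3% in shCTCF, against 11.99% and 13.1% in shLAC. Kcnip3 made up 31.5% and 30.3% in shCTCF and 36.3% and 33.9% in shLAC. These shares are tied, and the same values called Kcnip4 higher. Per unit of Kcnd2, an A-type channel gene, Kcnip4 stood at 0.638 and 0.690 in shCTCF and 0.455 and 0.498 in shLAC.

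Kcnip4 spans 1135 kb, and 23 unverified transcript models (the GENCODE class TEC) lie on its strand inside that span. In scaled TPM they summed to 222 and 224 in shCTCF and 210 and 253 in shLAC, and the groups overlapped. Singly, 0 of the 23 separated as higher and 11 as lower in shCTCF, and 12 overlapped. Among coding genes 27.5% separated as higher and 27.1% as lower. The 21 with a mean under 50 TPM summed to 57.4 and 56.0 in shCTCF and 58.8 and 68.0 in shLAC, lower in both shCTCF libraries. How reads were divided between Kcnip4 and these models is not known, so its level is uncertain.

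Pore subunits of the core Kv subfamilies gave 0 calls among 14 tested members, where 2.58% of coding genes rose and 3.48% fell. At such shares, 0 calls in a group this small, here or in the groups below, says little about the group. Kcnd2 was at 14.2 and 13.6 scaled TPM in shCTCF and 14.1 and 13.4 scaled TPM in shLAC, with a 95% interval of the log2 fold change from -0.12 to 0.14. Kcna4, another A-type subunit gene, was at 14.8 and 14.2 in shCTCF and 14.3 and 12.9 in shLAC (interval -0.068 to 0.24). Kcnc4, of the subfamily known for fast repolarisation, was at 5.95 and 6.24 in shCTCF and 5.73 and 5.39 in shLAC (interval -0.037 to 0.27). Kcnab2, which encodes a Kvbeta subunit of Kcna channels, was at 23.7 and 24.1 in shCTCF and 22.4 and 20.4 in shLAC and did not pass (adjusted p = 0.182).

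Kcnq genes, which encode the channels of the M current, gave 0 calls among 3 tested members, where 2.58% of coding genes rose and 3.48% fell. Kcnq3 was at 18.2 and 18.8 in shCTCF and 15.9 and 15.6 in shLAC (log2 fold change 0.22, adjusted p = 0.0557). Kcnq5 was at 9.34 and 9.89 in shCTCF and 10.1 and 10.4 in shLAC. Of the summed Kcnq TPM, Kcnq5 held 16.7% and 16.3% in shCTCF and 19.7% and 19.3% in shLAC.

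The group of Kcnma, Kcnn, Kcnt and Kcnu genes gave 0 calls among 7 tested members, where 2.58% of coding genes rose and 3.48% fell. Kcnma, Kcnn and Kcnt channels open with calcium or sodium, and Kcnu1 was only grouped with them. Kcnma1, the large-conductance BK channel gene, was at 23.5 and 23.2 scaled TPM in shCTCF and 23.7 and 20.6 scaled TPM in shLAC (interval -0.094 to 0.25). Kcnn2, of the small-conductance SK channels, was at 4.92 and 5.20 in shCTCF and 5.78 and 5.42 in shLAC (adjusted p = 0.307). Kcnt1, a sodium-activated channel gene, was at 5.45 and 5.82 in shCTCF and 4.41 and 4.87 in shLAC (log2 fold change 0.24, adjusted p = 0.112). Its relative Kcnt2 was at 5.93 and 5.98 in shCTCF and 5.63 and 5.87 in shLAC (adjusted p = 0.696).

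Inward rectifiers gave 0 calls among 10 tested members, where 2.58% of coding genes rose and 3.48% fell. Kcnj4, a strong rectifier and the most abundant tested member, was at 36.3 and 31.4 scaled TPM in shCTCF and 35.0 and 24.4 scaled TPM in shLAC, so the groups overlapped. Without shLAC replicate 1 it was called higher (log2 fold change 0.45, adjusted p = 0.000956), and without shLAC replicate 2 its change was -0.050. Kcnj11, the pore of the ATP-sensitive channel, was at 1.88 and 2.20 in shCTCF and 2.66 and 3.04 in shLAC (log2 fold change -0.34, adjusted p = 0.0786), and was called lower without shLAC replicate 1 (0.0153). The G protein-gated subunit genes Kcnj3, Kcnj6 and Kcnj9 had adjusted p of 0.668, 0.293 and 0.285.

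Kcnj10, a rectifier typical of glia, was at 1.76 and 1.11 scaled TPM in shCTCF and 1.53 and 1.07 scaled TPM in shLAC, and was high in replicate 1 of both groups. The scaled TPM of 12 astrocyte markers summed to 120 and 95.7 in shCTCF and 146 and 123 in shLAC, narrowly lower in both shCTCF libraries. Of these markers 1 stayed below 0.5 TPM and none was at 0 in every library. Among 11 tested markers 2 fell (Aqp4 and Slc1a3) and 0 rose, where 3.48% of coding genes fell and 2.58% rose. Sox9 stood higher in shCTCF, at 2.91 and 2.35 scaled TPM against 2.33 and 2.02 in shLAC. Slc4a4 had a log2 fold change of 0.12, and neither was called. The other tested astrocyte markers had negative changes. The part of glial content in the members' changes was not tested. Excitatory neuron markers gave 0 calls of 9, and pan-neuronal markers gave 2 higher (Rbfox3 and Syn1) and 0 lower of 8. The same shares of coding genes, 2.58% higher and 3.48% lower, apply to these lists.

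The tandem-pore leak channels gave 0 calls among 6 tested members, where 2.58% of coding genes rose and 3.48% fell. Kcnk1 was at 15.8 and 13.0 scaled TPM in shCTCF and 17.1 and 13.5 scaled TPM in shLAC (interval -0.37 to 0.22). The mechanosensitive channel genes Kcnk2, Kcnk4 and Kcnk10 had log2 fold changes of -0.21, -0.28 and -0.096, with adjusted p of 0.114, 0.138 and 0.519. Of the membrane auxiliary genes, Kcnmb2 and Kcnmb4 were tested and neither was called. Kcnmb4 was at 9.33 and 8.74 scaled TPM in shCTCF and 8.83 and 10.1 scaled TPM in shLAC. All 4 Kcne genes lay at or below 0.10 TPM in every library.

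**Figure D3:**
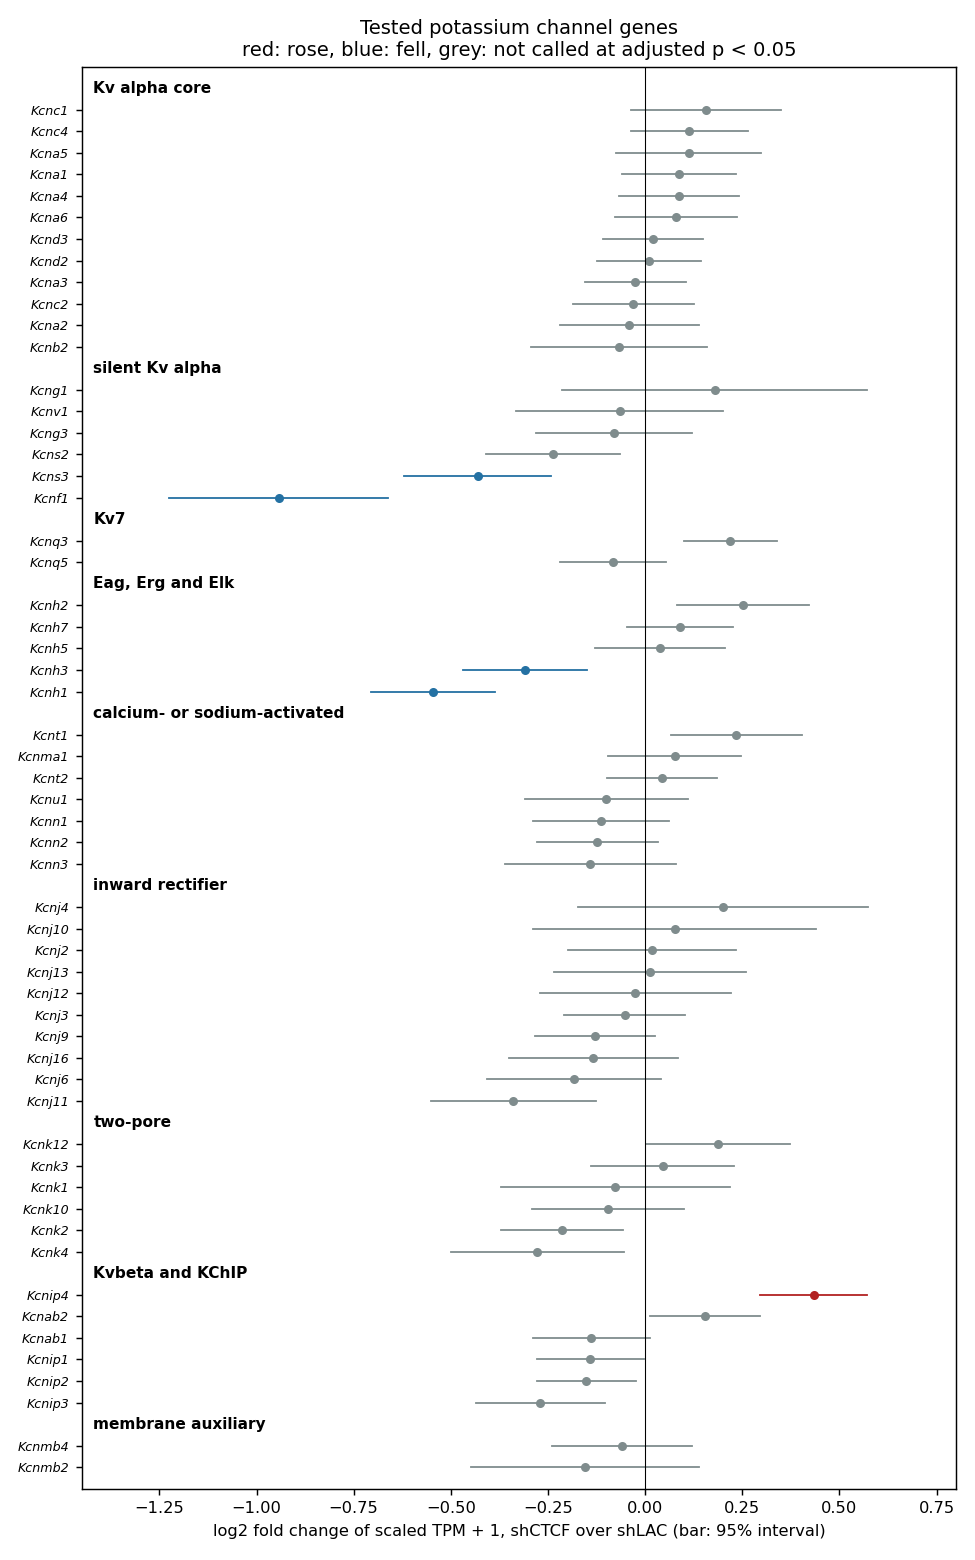
Log2 fold change of scaled TPM + 1 in shCTCF over shLAC (x axis) for 56 tested members by role group, with 95% intervals from limma. Kcnip4 stands right of 0 and Kcnf1, Kcnh1, Kcns3 and Kcnh3 stand left of it as the called members, and the 51 grey points did not pass.

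Of 9 role groups, 6 had overlapping sums of scaled TPM. Full separation of 2 against 2 libraries has a 2-sided exact permutation p of 0.333. Among single coding genes 27.5% separated as higher and 27.1% as lower in shCTCF. The separated sums below are therefore descriptions and say little about a role group. The Kcnh genes, at 28.1 and 28.9 in shCTCF and 33.2 and 31.7 in shLAC, and the silent subunits were lower in both shCTCF libraries. The Kcnq genes were higher, at 55.8 and 60.6 in shCTCF and 51.5 and 53.6 in shLAC. In deposited TPM the silent and Kcnh sums overlapped, and the Kcnq sums were 61.1 and 63.5 in shCTCF and 53.9 and 44.6 in shLAC.

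**Figure D4:**
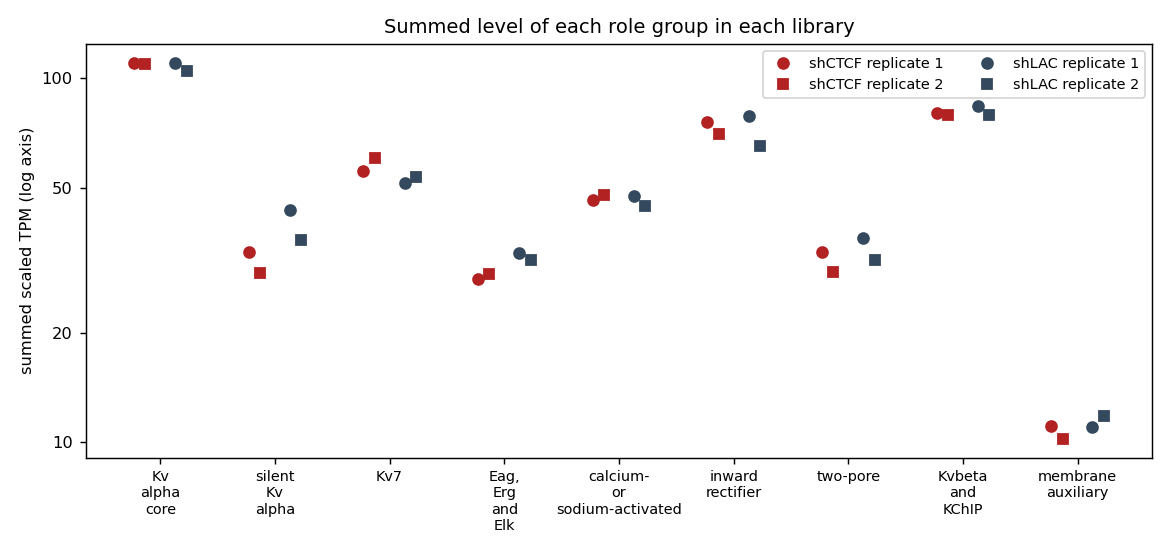
Summed scaled TPM (y axis, log scale) of the 9 role groups in the 2 shCTCF and 2 shLAC libraries. The silent Kv and Kcnh (Eag, Erg and Elk) sums are lower in both shCTCF libraries, the Kcnq sum (Kv7) is higher in both, and the other 6 overlap. Full separation of 2 against 2 libraries has a 2-sided exact permutation p of 0.333.

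No called gene lay less than 500 kb from another tested member. Kcns3 and Kcnf1, which both fell, lie on chromosome 12 more than 500 kb apart. Among tested members less than 500 kb apart, Kcna5, Kcna1 and Kcna6 on chromosome 6 had log2 fold changes of 0.11, 0.087 and 0.080. Kcna3 and Kcna2 on chromosome 3 had -0.025 and -0.040, and Kcnc4, within 500 kb of both, had 0.11. Kcnj9 and Kcnj10 on chromosome 1, 11.9 kb apart, had -0.13 and 0.076. Kcnj16 and Kcnj2 on chromosome 11, 38.2 kb apart, had -0.13 and 0.017. Kcnj11 and Kcnc1 on chromosome 7, 296 kb apart, had -0.34 and 0.16. The log10 span of a gene correlated with its log2 fold change at r = 0.12 (rho = -0.013) over the 59 tested members and at r = 0.038 (rho = 0.040) over the 11268 coding genes, a description over genes that share the same 4 libraries.

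Of 49 genes outside the family that act with potassium channels or move potassium, 44 were tested, 3 rose, 2 fell and 39 did not pass, where 2.58% of coding genes rose and 3.48% fell. These few calls lie near the background too. Ank3, which encodes the ankyrin that anchors Kcnq channels at the axon initial segment, was at 30.3 and 31.6 scaled TPM in shCTCF and 19.5 and 20.5 scaled TPM in shLAC, a rise of 0.61 on the log2 scale (limma, SE 0.0521, adjusted p = 0.00465). It was also called over all 12816 genes (0.0355 after scaling and 0.0143 as deposited). The p-value as deposited does not reflect the gene's own spread. Slc12a5, the neuronal potassium-chloride cotransporter gene, rose by 0.26 (adjusted p = 0.0283). Rgs7bp, an anchor of the complex that speeds closure of G protein-gated rectifiers, rose by 0.24 (adjusted p = 0.0467). Adam22, a receptor for Lgi1 found with Kcna channels at axons, fell by 0.36 (adjusted p = 0.0228), and the scaffold gene Dlg2 fell by 0.22 (0.0438). Of these 5, Ank3 alone was called without each library in turn. Over all 12816 genes the other 4 were not called, with adjusted p after scaling and as deposited of 0.0859 and 0.435 for Slc12a5, 0.108 and 0.457 for Rgs7bp, 0.0895 and 0.742 for Adam22 and 0.0983 and 0.961 for Dlg2. As deposited the log2 fold change of Dlg2 was -0.022 and that of Adam22 -0.16. With 1 library left out, the adjusted p missed the threshold for Slc12a5 without shCTCF replicate 1 (0.117) or shCTCF replicate 2 (0.109), for Rgs7bp without shCTCF replicate 1 (0.126), shCTCF replicate 2 (0.202) or shLAC replicate 1 (0.0774), for Adam22 without shCTCF replicate 2 (0.109) and for Dlg2 without shCTCF replicate 1 (0.151), shCTCF replicate 2 (0.196) or shLAC replicate 2 (0.0612). The Kcnd partner genes Dpp6 and Dpp10, the 3 calmodulin genes, the 5 genes of the HCN channels and their partner and the 6 sodium-potassium pump genes gave 0 calls.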

How the data were processed

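Total RNA from mouse cortical culture was sequenced as paired reads, per the labels' protocols. The deposited files hold TPM per Ensembl gene, 1 file per library, computed by the authors. The submitters' processing notes name RSEM 1.2.28, CASAVA and mm10. The sources used here do not give the aligner settings, annotation release or strandedness. TPM sums to a fixed total, so abundant RNA lowers all other genes. TPM also keeps no depth, so no counting interval can be given. GENCODE vM21 (GRCm38) named 37060 of the 37437 identifiers.

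Tested were the 11268 protein-coding genes with a transcript of at least 300 nt and at least 1 TPM in at least 2 libraries, without 13 satellite-like predictions. Values were divided by median-ratio factors, and log2(TPM + 1) was tested in R 4.3.3 by limma 3.58.1 (trended prior with 4.57 degrees of freedom, no covariate, 2-sided, Benjamini-Hochberg over all genes tested). Fits over all 12816 genes stand beside it, and as deposited the prior had infinite degrees of freedom, so that those p-values do not reflect a gene's own spread. The tests were run on simulated data first. Other filters, scalings, pseudocounts and priors, a replicate block and leaving out each library were tried.

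Members, lists, filters and tests were chosen with earlier results of these data known. The rule for named genes took the called members, the most abundant tested member of each subfamily and called genes of the list of channel partners; some members are not reported here by name, and counts, sums and shares include them. Other genes were named after their values were seen, among them Kcnq3, Kcnq5, Kcnj11, Kcnh2, Kcnh7, Kcnt1 and the other Kcnip genes. Of marker lists not described with the results, inhibitory neurons gave 1 higher and 1 lower of 9 tested, oligodendrocyte lineage 0 higher and 0 lower of 8 tested, microglia 0 higher and 0 lower of 1 tested, fibroblasts 0 higher and 1 lower of 1 tested and proliferating cells 0 higher and 0 lower of 5 tested.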

Additional observations from a re-analysis of the deposited data

How the results depend on the processing

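The numbers of members that rose and fell (1 and 4) became 0 and 1 as deposited, 0 and 1 over all biotypes after scaling, 0 and 1 over all biotypes as deposited, 1 and 1 without a filter on low values and 1 and 1 with means of 5 TPM or more. Leaving out 1 library gave 0 to 2 risers and 2 to 5 fallers, where a lone library is assumed to vary like the other group. Coding genes that rose and fell (291 and 392) became 114 and 51, 34 and 78, 115 and 54, 68 and 130 and 177 and 223 in the same order, and 64 to 510 and 118 to 615 with 1 library left out. Kcnh3 was not called with upper-quartile scaling (adjusted p = 0.0513) or without a trend (0.0714). The replicate block gave 2 and 6 members and 597 and 716 coding genes, adding Kcnq3 (0.0365), Kcnip3 (0.0223) and Kcnj11 (0.0248). No label pairs the numbers, and deviations of same-numbered libraries correlated at r = 0.246 over coding genes and 0.596 over members. As deposited, 21 of 59 tested members turned sign, all from lower to higher and none called after scaling. Among them, the log2 fold change in both fits as deposited was 0.054 in Kcng3, 0.11 in Kcnk1, 0.12 in Kcnmb4, 0.044 in Kcnn2, 0.016 in Kcnu1, 0.12 in Kcnv1, 0.042 in Kcnip1 and 0.035 in Kcnip2, and over all 12816 genes 0.098 in Kcnq5, 0.075 in Kcnk10, 0.14 in Kcna2, 0.15 in Kcna3, 0.14 in Kcnj3 and 0.048 in Kcnj9. With 1 library left out it ranged from -0.025 to 0.045 in Kcnd2, -0.050 to 0.45 in Kcnj4, -0.24 to 0.082 in Kcnk1, -0.022 to 0.17 in Kcnma1, -0.15 to 0.028 in Kcnmb4 and -0.23 to 0.096 in Kcnv1. The cause of these differences was not tested. Without depth, the precision of low members is unknown.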

Other observations

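Some members known mainly from other tissues were listed near or above 1 TPM in these cultures. Kcnu1, which encodes a channel best known from sperm, was at 1.47 and 1.66 TPM in shCTCF, against 1.83 and 1.27 TPM in shLAC, with overlapping groups (limma, adjusted p = 0.535). The 32 members that were not tested reached at most 1.05 TPM in any library, and 28 of them stayed below 0.5 TPM in every library. Among these, Kcnj8, a rectifier of pericytes, reached 0.010 TPM, and the partner gene Abcc9, outside the family, reached 0.070 TPM. Kcnk12 and Kcna5 passed the level filter through the shCTCF libraries alone and neither was called. Kcnk12 was at 1.42 and 1.23 TPM in shCTCF, against 0.980 and 0.820 TPM in shLAC (limma, adjusted p = 0.208).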
